A study of Homo sapiens with 41 samples.

Results

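The aminoacyl-tRNA synthetases, the enzymes that load each tRNA with its amino acid, were followed across 16 groups of human cells as 35 genes of the 58735 in the count tables. Of these, 19 encode the cytosolic set (the symbols that end in 1, with FARSA and FARSB) and 16 the mitochondrial set (the symbols that end in 2). The members were chosen by name, through the Ensembl identifiers, and all 35 passed the filter on low counts in both lines. Cells were LX-2, an immortalised line of human hepatic stellate cells, and HMLE, an immortalised line of human mammary epithelial cells. They carried a hairpin labelled shATF4, against the stress transcription factor ATF4, or a control hairpin, shCtrl, so every group held a hairpin. LX-2 cells with either hairpin were given AA_Dep (the labels do not spell this out), thapsigargin (a blocker of the calcium pump of the endoplasmic reticulum, and so a cause of ER stress), TGFbeta (a fibrogenic cytokine) or DMSO. HMLE cells with either hairpin had AA_Dep, thapsigargin, Twist_OE (named for the transcription factor Twist, which drives epithelial-mesenchymal transition) or DMSO. Each group had 2 RNA samples. The labels give no dose or duration, name a single hairpin against ATF4, and do not say whether replicates were separate cultures, so p-values measure the spread between these samples, which may be technical.

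In the cytosol these enzymes supply the ribosome with charged tRNAs, and several of them are held together in a multisynthetase complex. A separate set, also encoded in the nucleus, is imported to charge the tRNAs of the mitochondrial ribosome. ATF4 is made when stress kinases slow translation by phosphorylating eIF2alpha, the integrated stress response, and then activates genes of amino acid uptake, amino acid synthesis and tRNA charging. Of the cytosolic set, 13 genes are known as targets of that response (AARS1, CARS1, EPRS1, GARS1, IARS1, LARS1, MARS1, NARS1, SARS1, TARS1, VARS1, WARS1 and YARS1), and the other 6 are FARSA, FARSB, HARS1, KARS1, QARS1 and RARS1. The single genes GARS1 and KARS1 give both the cytosolic and the mitochondrial enzyme for glycine and lysine.

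ATF4 binds, paired with C/EBP proteins, to composite sites whose core is TGATGNAA. RefSeq promoter windows (GRCh38.p14, 250 bases before the annotated start to 50 after it) were found for 30 of the 35 members. Searched on both strands, TGATGNAA stood in 7 of the 16 cytosolic members with a window, all 7 among the 10 known targets with a window, and in 1 of 14 mitochondrial members, YARS2. Of all 27305 genes with a window, 4.46% held it. The 7 were AARS1, CARS1, GARS1, IARS1, MARS1, NARS1 and TARS1. EPRS1, SARS1 and WARS1, also known targets, had windows without it. Their RNA was lower with shATF4 in 4, 6 and 6 of 8 comparisons with shCtrl (edgeR adjusted p under 0.05). A match of these letters is a description, not a bound site. Windows are printed below for 4 members whose RNA was much lower with shATF4 and for YARS2, 5′ to 3′ on the gene's own strand, with the match (or its reverse complement) in capitals. They lie at chr16:70289457-70289756, minus strand (AARS1), chr11:3057374-3057673, minus strand (CARS1), chr7:30594628-30594927, plus strand (GARS1), chr12:57487818-57488117, plus strand (MARS1) and chr12:32755848-32756147, minus strand (YARS2).
AARS1: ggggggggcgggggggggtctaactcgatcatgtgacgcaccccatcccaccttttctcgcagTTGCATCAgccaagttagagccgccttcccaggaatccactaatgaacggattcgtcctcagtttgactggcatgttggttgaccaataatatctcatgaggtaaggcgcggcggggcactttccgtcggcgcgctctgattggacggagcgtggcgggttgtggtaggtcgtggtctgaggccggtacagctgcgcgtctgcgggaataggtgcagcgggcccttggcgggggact
CARS1: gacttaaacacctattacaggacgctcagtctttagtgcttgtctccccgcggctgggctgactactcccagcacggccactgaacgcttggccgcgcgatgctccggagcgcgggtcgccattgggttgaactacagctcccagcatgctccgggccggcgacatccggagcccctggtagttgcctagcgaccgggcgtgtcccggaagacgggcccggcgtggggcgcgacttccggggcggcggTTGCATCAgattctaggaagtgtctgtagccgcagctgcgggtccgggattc
GARS1: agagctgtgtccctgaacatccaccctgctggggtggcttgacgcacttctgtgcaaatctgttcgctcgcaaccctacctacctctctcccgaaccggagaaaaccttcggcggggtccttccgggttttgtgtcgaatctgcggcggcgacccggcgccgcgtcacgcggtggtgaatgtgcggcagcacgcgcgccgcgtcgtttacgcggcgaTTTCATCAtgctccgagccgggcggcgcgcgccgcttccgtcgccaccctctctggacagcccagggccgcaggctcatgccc
MARS1: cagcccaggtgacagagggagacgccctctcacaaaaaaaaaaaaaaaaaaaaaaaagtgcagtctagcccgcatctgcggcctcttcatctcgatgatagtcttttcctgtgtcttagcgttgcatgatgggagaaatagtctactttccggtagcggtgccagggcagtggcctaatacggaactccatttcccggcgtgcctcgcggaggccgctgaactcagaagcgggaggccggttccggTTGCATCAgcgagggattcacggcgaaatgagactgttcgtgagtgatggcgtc
YARS2: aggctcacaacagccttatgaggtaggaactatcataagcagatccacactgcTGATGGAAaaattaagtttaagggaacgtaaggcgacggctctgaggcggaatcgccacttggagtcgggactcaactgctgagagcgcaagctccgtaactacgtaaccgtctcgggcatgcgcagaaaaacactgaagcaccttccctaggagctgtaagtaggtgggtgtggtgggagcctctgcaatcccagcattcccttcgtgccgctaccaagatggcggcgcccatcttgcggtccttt

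The match begins 187 bases before the start in AARS1, 2 before it in CARS1, 33 before it in GARS1, 4 before it in MARS1 and 197 before it in YARS2. CARS1 and GARS1 have further annotated starts, and the window shown is the second one of each. The first window of each held no match.

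Sequencing gave 14551191 to 18776430 counts per LX-2 library and 15956909 to 23243132 per HMLE library. Levels below are CPM, counts scaled to the size of the library, after TMM scaling within each line. The files of both HMLE shATF4 AA_Dep samples were identical and were counted as 1 library, assumed to vary like the other groups. In LX-2, shCtrl thapsigargin replicate 2 stood apart: its log2(CPM + 1) values correlated with its replicate at 0.927, where every other LX-2 pair reached 0.996 or more, and 15840 genes had counts, against 22912 to 24255 elsewhere in LX-2. LX-2 results are therefore from 15 libraries, with the counts from all 16 given beside those of the members. In the 15-library fit LX-2 shCtrl thapsigargin has 1 library, assumed to vary like the others. In LX-2, 8 mesenchymal and stellate markers summed to 2281 to 25350 CPM and 8 epithelial markers to 13.8 to 50.7 CPM. HMLE libraries, Twist_OE among them, held 905 to 15320 CPM of the epithelial markers and 172 to 4854 CPM of the mesenchymal ones. The epithelial sums set the lines apart as labelled, while the mesenchymal ranges of the lines overlapped. Endothelial markers summed to at most 2.81 CPM in LX-2 and 10.2 CPM in HMLE, and immune ones to 3.71 and 0.503 CPM. Hepatocyte markers summed to at most 0.39 CPM in either line.

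ATF4 RNA was lower with shATF4 in all 8 comparisons. It stood at 225 and 219.7 CPM in shATF4 LX-2 cells, against 777 and 610.2 CPM in shCtrl LX-2 cells with AA_Dep (log2 change -1.64 ± 0.10, adjusted p = 1.53e-07), and at 221 and 199 CPM against 626 CPM in thapsigargin (-1.58). The LX-2 log2 changes were -1.07 in TGFbeta and -0.91 in DMSO. In the fit of all 16 LX-2 libraries the ATF4 change passed in thapsigargin (-2.26, adjusted p = 0.0174) and not in AA_Dep (-1.65, adjusted p = 0.113), TGFbeta (-1.08) or DMSO (-0.92). In HMLE the ATF4 changes were -2.78 in AA_Dep, -2.72 in thapsigargin, -0.97 in Twist_OE and -1.85 in DMSO, with edgeR adjusted p of 5.05e-12 or less.

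With shATF4, 12 of the 19 cytosolic genes were lower in LX-2 AA_Dep and 9 in LX-2 thapsigargin, and 12, 12 and 11 in HMLE AA_Dep, thapsigargin and DMSO. At most 2 cytosolic genes were higher, and at most 1 of 16 mitochondrial genes was lower, in any of these 5 comparisons. Every cytosolic gene that fell in them was a known stress response target. Of all tested genes 2.09% to 11.9% were lower in these 5. In LX-2 TGFbeta 8 cytosolic and 6 mitochondrial genes were called, and in HMLE Twist_OE 13 and 8, each set in both directions. In LX-2 DMSO 0 cytosolic genes and 1 mitochondrial gene were called. When all 16 LX-2 libraries were fitted, 1 cytosolic gene was called lower in LX-2 AA_Dep and 1 in LX-2 thapsigargin. The sets were not tested as wholes or against each other. Of the other 6 cytosolic genes 1 fell in 1 of the 8 comparisons (QARS1 in LX-2 with TGFbeta). AARS1, CARS1, MARS1 and YARS1 were called lower in 7 of the 8 comparisons, and GARS1, SARS1 and WARS1 in 6. VARS1 was the only one of the 13 targets called lower in none; it was higher in 2. All counts here are of genes at an adjusted p under 0.05 by edgeR's quasi-likelihood F test over all genes. In bulk RNA, fewer cells expressing a gene and less RNA per cell cannot be told apart.

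**Figure D1:**
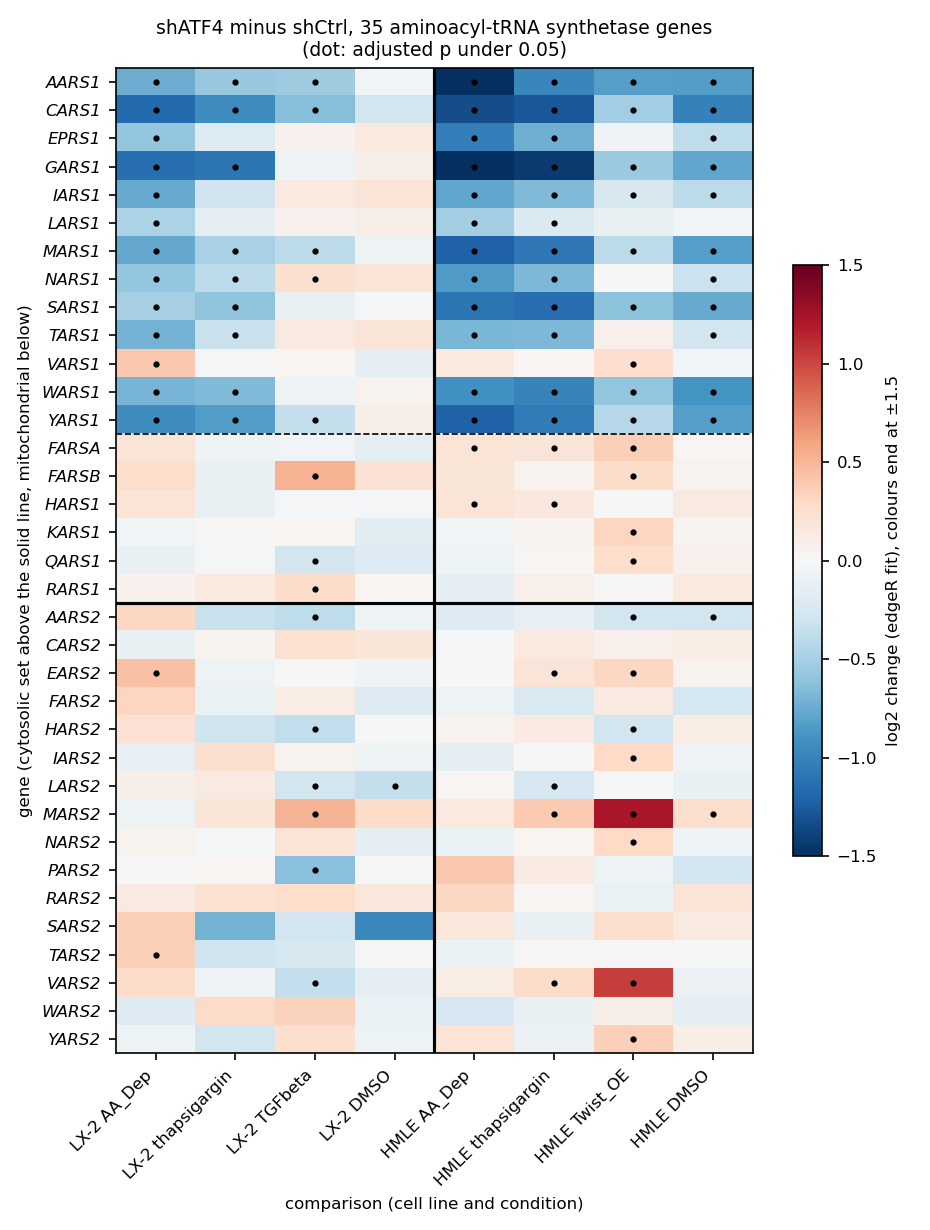
Log2 change of each synthetase gene (rows) with shATF4 relative to shCtrl in 4 conditions of LX-2 and 4 of HMLE (columns), with blue for lower, red for higher and a dot for an adjusted p under 0.05. The known stress response targets stand above the dashed line and the mitochondrial set below the solid line; the deepest blue is AARS1 in HMLE AA_Dep, at -1.62.

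In LX-2 cells given AA_Dep, 12 of the 19 cytosolic genes were lower and 1 higher with shATF4, and 0 of 16 mitochondrial genes were lower and 2 higher, where 3.87% of all tested genes were higher and 6.04% lower. The median log2 change was -0.58 in the cytosolic set and 0.11 in the mitochondrial set, against -0.01 over all tested genes. CARS1, which charges tRNA with cysteine, had 55.5 and 48.3 CPM in shATF4 cells, against 121 and 111 CPM in shCtrl cells (log2 change -1.16 ± 0.10, adjusted p = 1.72e-06). GARS1, the glycine enzyme, had 109 and 106 CPM in shATF4 cells, against 228 and 242 CPM in shCtrl cells (log2 change -1.13 ± 0.08, adjusted p = 3.34e-07). YARS1, for tyrosine, had 130.0 and 125 CPM in shATF4 cells, against 242 and 244 CPM in shCtrl cells (log2 change -0.93 ± 0.07, adjusted p = 1.4e-06). The groups did not overlap in any of these genes, and GARS1 in shATF4 cells stood about where it did in DMSO (107 and 106 CPM). Among all members here the hairpin groups overlapped in 4 of 19 cytosolic and 7 of 16 mitochondrial genes. The share over all genes was not counted. MARS1, for methionine, had 194 and 193 CPM in shATF4 cells, against 337 and 325 CPM in shCtrl cells (-0.77). The other members that fell had log2 changes between -0.75 (IARS1) and -0.47 (LARS1, for leucine). VARS1, the valine enzyme, went the other way, with 124 and 124 CPM in shATF4 cells, against 103 and 84.6 CPM in shCtrl cells (log2 change 0.40 ± 0.09, adjusted p = 0.0124). Of the mitochondrial set, EARS2, for glutamate, had 31.6 and 35.6 CPM in shATF4 cells, against 24.0 and 25.5 CPM in shCtrl cells (log2 change 0.44 ± 0.10, adjusted p = 0.0138), and TARS2, for threonine, had 40.8 and 39.5 CPM in shATF4 cells, against 31.3 and 31.5 CPM in shCtrl cells (log2 change 0.36 ± 0.10, adjusted p = 0.0347). Both were higher in both shATF4 libraries. In the fit of all 16 LX-2 libraries edgeR called 1 cytosolic and 0 mitochondrial genes (1 mitochondrial gene had an unadjusted p under 0.05), and 16 of all genes in either direction, while the medians were -0.58 and 0.11. With only these 2 groups in the fit 5 cytosolic and 0 mitochondrial genes were called. The calls of EARS2 and TARS2 were both lost with all 16 libraries, in the fit of these 2 groups and without shATF4 AA_Dep replicate 2; TARS2 was also lost with no count filter and without shATF4 AA_Dep replicate 1 or shCtrl AA_Dep replicate 2. Without shCtrl AA_Dep replicate 1, 5 mitochondrial genes were called.

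In thapsigargin, 9 cytosolic genes were lower and none higher in LX-2 shATF4 cells, and no mitochondrial gene was called, where 3.11% of all tested genes were higher and 2.09% lower. All 9 were known targets. DESeq2 called no mitochondrial gene either, edgeR called 1 with only these groups in the fit, and 3 had an unadjusted p under 0.05 in edgeR. The medians were -0.30 (cytosolic), -0.05 (mitochondrial) and 0.01 (all tested genes). GARS1 had 179 and 197 CPM in shATF4 cells, against 397 CPM in the shCtrl library used and 426 CPM in the discordant one (log2 change -1.08 ± 0.09, adjusted p = 4.45e-06). CARS1 had 55.7 and 52.3 CPM in shATF4 cells, against 104 CPM and 333 CPM in the same 2 shCtrl libraries (log2 change -0.94 ± 0.11, adjusted p = 0.000118). Each of these 2 genes was higher in either shCtrl library than in both shATF4 libraries. Against the shCtrl library used, 4 of the 19 cytosolic genes overlapped. YARS1 (-0.83) and WARS1, for tryptophan (-0.66), had 182 and 179 CPM and 236 and 257 CPM with shATF4, against 321 CPM and 389 CPM in the shCtrl library used, and 746 CPM and 801 CPM in the discordant one. The discordant library did not lie with its replicate for every member: IARS1, for isoleucine, was at 153 CPM in it, against 665 CPM in the other shCtrl library and 525 and 557 CPM with shATF4. With all 16 libraries 1 cytosolic gene was called lower, the cytosolic median was -0.58, and the median of all genes was 0.15.

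With TGFbeta the members of LX-2 cells moved both ways: 5 cytosolic genes were lower and 3 higher with shATF4, and 5 mitochondrial genes lower and 1 higher, where 10.9% of all tested genes were higher and 10.7% lower. The cytosolic median was -0.02. CARS1 had 40.3 and 37.8 CPM in shATF4 cells, against 57.8 and 63.8 CPM in shCtrl cells (log2 change -0.64 ± 0.10, adjusted p = 0.000225), and AARS1, the alanine enzyme, had 98.7 and 102 CPM in shATF4 cells, against 146 and 145 CPM in shCtrl cells (log2 change -0.54 ± 0.07, adjusted p = 8.47e-05). FARSB, a subunit of the phenylalanine enzyme, was higher, with 101 and 95.6 CPM in shATF4 cells, against 72.1 and 65.5 CPM in shCtrl cells (log2 change 0.52 ± 0.09, adjusted p = 0.000716). MARS1 (-0.40), YARS1 (-0.36) and QARS1 (-0.28) fell as well, and RARS1, for arginine (0.28), and NARS1, for asparagine (0.24), rose. NARS1 stood at 348 and 363 CPM in shATF4 cells, against 302 and 299.6 CPM in shCtrl cells, and RARS1 at 189 and 184 CPM in shATF4 cells, against 153 and 155 CPM in shCtrl cells. In each of these genes both shATF4 libraries lay on the same side of both shCtrl libraries. That held for most members, called or not: the hairpin groups overlapped in 2 of 19 cytosolic and 3 of 16 mitochondrial genes. GARS1 did not pass, at 154 and 165 CPM in shATF4 cells, against 165 and 172 CPM in shCtrl cells (log2 change -0.08). Among mitochondrial genes PARS2, for proline, had 4.67 and 6.09 CPM in shATF4 cells, against 9.11 and 7.52 CPM in shCtrl cells (log2 change -0.63 ± 0.17, adjusted p = 0.0151), and MARS2, for methionine, had 27.2 and 23.7 CPM in shATF4 cells, against 17.7 and 18.0 CPM in shCtrl cells (log2 change 0.51 ± 0.11, adjusted p = 0.00398); AARS2, HARS2, VARS2 and LARS2 fell by 0.38, 0.37, 0.37 and 0.27 on the log2 scale. Without any 1 of the 4 libraries compared, 4 to 5 cytosolic and 1 to 3 mitochondrial genes were called, with only these groups in the fit 11 mitochondrial genes were, and with all 16 LX-2 libraries edgeR called 0 of either set, with 2 in each at an unadjusted p under 0.05.

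In DMSO no cytosolic gene was called between the hairpins in LX-2 and 1 mitochondrial gene was, where 6.28% of all tested genes were higher and 5.3% lower. DESeq2 called none of the cytosolic set as well, and edgeR gave 6 of them an unadjusted p under 0.05. The hairpin groups overlapped in 4 of the 19 and not in the rest, though none was called. CARS1 had 38.9 and 39.4 CPM in shATF4 cells, against 46.5 and 48.0 CPM in shCtrl cells (log2 change -0.27 ± 0.10, adjusted p = 0.087), the lowest log2 change of the set, and GARS1 had 107 and 106 CPM in shATF4 cells, against 96.7 and 103 CPM in shCtrl cells (log2 change 0.09). LARS2, the mitochondrial leucine enzyme, was lower, with 54.7 and 55.1 CPM in shATF4 cells, against 68.2 and 72.7 CPM in shCtrl cells (log2 change -0.36 ± 0.09, adjusted p = 0.0194). The call was lost with all 16 LX-2 libraries, and without either shATF4 DMSO library or without shCtrl DMSO replicate 2.

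In HMLE cells given AA_Dep, 12 of 19 cytosolic genes were lower and 2 higher with shATF4 and no mitochondrial gene was called, where 9.77% of all tested genes were higher and 7.09% lower. The medians were -0.78 (cytosolic), 0.02 (mitochondrial) and 0.03 (all tested genes). DESeq2 likewise called no mitochondrial gene, and 4 had an unadjusted p under 0.05 in edgeR. In edgeR 2 mitochondrial genes were called with only these groups in the fit, 1 with a replicate block and 1 without shCtrl AA_Dep replicate 2. AARS1 had 101 CPM in the single shATF4 library, against 315 and 307 CPM in shCtrl cells (log2 change -1.62 ± 0.07, adjusted p = 3.34e-12). GARS1 had 197 CPM with shATF4, against 569 and 585 CPM with shCtrl (log2 change -1.55 ± 0.06, adjusted p = 7.55e-13). CARS1 had 69.6 CPM, against 172 and 177 CPM (-1.33), and MARS1 198 CPM, against 456 and 464 CPM (-1.22), in the same order. The falls of AARS1 and GARS1 were the largest of any member in the 8 comparisons with 15 LX-2 libraries, and the same 12 symbols were called lower as in LX-2 AA_Dep. FARSA, the other subunit of the phenylalanine enzyme, had 89.3 CPM in shATF4 cells, against 79.6 and 75.7 CPM in shCtrl cells (log2 change 0.20 ± 0.07, adjusted p = 0.0414). HARS1, for histidine, had 98.8 CPM in shATF4 cells, against 82.9 and 88.1 CPM in shCtrl cells (log2 change 0.21 ± 0.07, adjusted p = 0.0344). Both rises were small beside the falls, and the single shATF4 library lay above both shCtrl libraries. No cytosolic gene, called or not, overlapped between the hairpins here. Among the mitochondrial set, IARS2, for isoleucine, had 162 CPM in shATF4 cells, against 184 and 174 CPM in shCtrl cells (log2 change -0.14 ± 0.06, adjusted p = 0.103).

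Thapsigargin gave HMLE cells 12 cytosolic genes lower and 2 higher with shATF4, with 1 mitochondrial gene lower and 3 higher, where 12.3% of all tested genes were higher and 11.9% lower. The medians were -0.67 (cytosolic), 0.02 (mitochondrial) and 0.01 (all tested genes). GARS1 had 284 and 285 CPM in shATF4 cells, against 757 and 783 CPM in shCtrl cells (log2 change -1.44 ± 0.04, adjusted p = 2.15e-14). CARS1 had 82.8 and 77.3 CPM in shATF4 cells, against 195 and 193 CPM in shCtrl cells (log2 change -1.28 ± 0.05, adjusted p = 1.45e-12). SARS1, for serine, had 224 and 209 CPM in shATF4 cells, against 491 and 461 CPM in shCtrl cells (log2 change -1.14 ± 0.05, adjusted p = 2e-12). In all of these the 2 groups were far apart relative to the spread of their replicates. MARS1 had 239 and 233 CPM in shATF4 cells, against 507 and 485 CPM in shCtrl cells (-1.07), and the remaining falls lay between -1.04 (YARS1) and -0.22 (LARS1). The higher cytosolic genes were FARSA (223 and 215 CPM in shATF4 cells, against 196 and 186 CPM in shCtrl cells; 0.20) and HARS1 (131 and 126 CPM in shATF4 cells, against 110.2 and 119 CPM in shCtrl cells; 0.16). Of the mitochondrial set, MARS2 had 46.1 and 45.4 CPM in shATF4 cells, against 33.8 and 36.0 CPM in shCtrl cells (log2 change 0.39 ± 0.07, adjusted p = 0.000495). VARS2, for valine, had 66.9 and 68.0 CPM in shATF4 cells, against 52.9 and 58.6 CPM in shCtrl cells (0.27), EARS2 rose by 0.20 and LARS2 fell (46.6 and 45.9 CPM in shATF4 cells, against 55.2 and 55.2 CPM in shCtrl cells; -0.26). Of the mitochondrial set 2 genes were called without shATF4 thapsigargin replicate 1 and 1 without shATF4 thapsigargin replicate 2.

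Under Twist_OE genes of both sets moved both ways in HMLE cells. With shATF4 8 cytosolic genes were lower and 5 higher, and 2 mitochondrial genes lower and 6 higher, where 23.3% of all tested genes were higher and 23.9% lower. The 8 of 16 mitochondrial genes called compare with 47.2% of all genes in either direction. The 8 that fell were known targets: AARS1 had 146 and 144 CPM in shATF4 cells, against 260.0 and 253 CPM in shCtrl cells (log2 change -0.83 ± 0.05, adjusted p = 6.41e-11), and SARS1 had 172 and 171 CPM in shATF4 cells, against 264 and 262 CPM in shCtrl cells (log2 change -0.62 ± 0.05, adjusted p = 1.8e-09). WARS1 (161 and 168 CPM with shATF4, against 259 and 239 CPM) and GARS1 (291 and 287 CPM, against 439 and 414 CPM) fell by 0.59 and 0.56 on the log2 scale. The 5 that rose were FARSA (0.36), KARS1 (0.32), FARSB (0.27), QARS1 (0.27) and VARS1 (0.26), so that 4 of the 6 cytosolic genes outside the known targets were higher. FARSA had 168 and 157 CPM in shATF4 cells, against 128 and 126 CPM in shCtrl cells, FARSB 135 and 125 CPM against 108 and 107 CPM, KARS1 284 and 266 CPM against 225 and 215 CPM, QARS1 147 and 156 CPM against 121 and 131 CPM and VARS1 240.1 and 241 CPM against 201 and 201 CPM. The largest changes of the mitochondrial set in the knockdown comparisons were here. MARS2 had 47.1 and 43.6 CPM in shATF4 cells, against 19.5 and 19.1 CPM in shCtrl cells (log2 change 1.23 ± 0.08, adjusted p = 9.53e-11), and VARS2 had 119 and 123 CPM in shATF4 cells, against 54.3 and 63.3 CPM in shCtrl cells (log2 change 1.04 ± 0.07, adjusted p = 4.67e-10). In both genes the shATF4 libraries stood far above the shCtrl ones, above the DMSO level of the same hairpin for VARS2 and below it for MARS2. AARS2, for alanine, had 26.1 and 23.6 CPM in shATF4 cells, against 28.5 and 31.7 CPM in shCtrl cells (-0.28), and HARS2 25.9 and 28.1 CPM in shATF4 cells, against 31.9 and 33.7 CPM in shCtrl cells (-0.28).

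In HMLE cells in DMSO 11 cytosolic genes were lower and none higher with shATF4, all known targets, with 1 mitochondrial gene lower and 1 higher, where 6.08% of all tested genes were higher and 6.72% lower. The cytosolic median was -0.32 and the mitochondrial one -0.03. CARS1 had 56.1 and 60.0 CPM in shATF4 cells, against 116 and 117 CPM in shCtrl cells (log2 change -1.01 ± 0.05, adjusted p = 2.69e-10). WARS1 had 143 and 139.6 CPM in shATF4 cells, against 263 and 263 CPM in shCtrl cells (log2 change -0.90 ± 0.05, adjusted p = 9.21e-10). AARS1 had 136 and 129 CPM in shATF4 cells, against 238 and 236 CPM in shCtrl cells (-0.84), and MARS1 had 199.8 and 187 CPM in shATF4 cells, against 341 and 347 CPM in shCtrl cells (-0.83). No shATF4 library reached a shCtrl library in any of these. The hairpin groups overlapped in 1 of the 19 cytosolic genes, called or not. LARS1 and VARS1 were the known targets not called, at -0.04 and -0.04. In the mitochondrial set AARS2 had 27.2 and 25.9 CPM in shATF4 cells, against 31.2 and 32.8 CPM in shCtrl cells (log2 change -0.27 ± 0.08, adjusted p = 0.0301) and MARS2 63.4 and 61.3 CPM in shATF4 cells, against 54.8 and 49.1 CPM in shCtrl cells (log2 change 0.26 ± 0.07, adjusted p = 0.0147). With 1 HMLE library left out, 0 to 1 mitochondrial genes were called, and DESeq2 called 1.

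**Figure D2:**
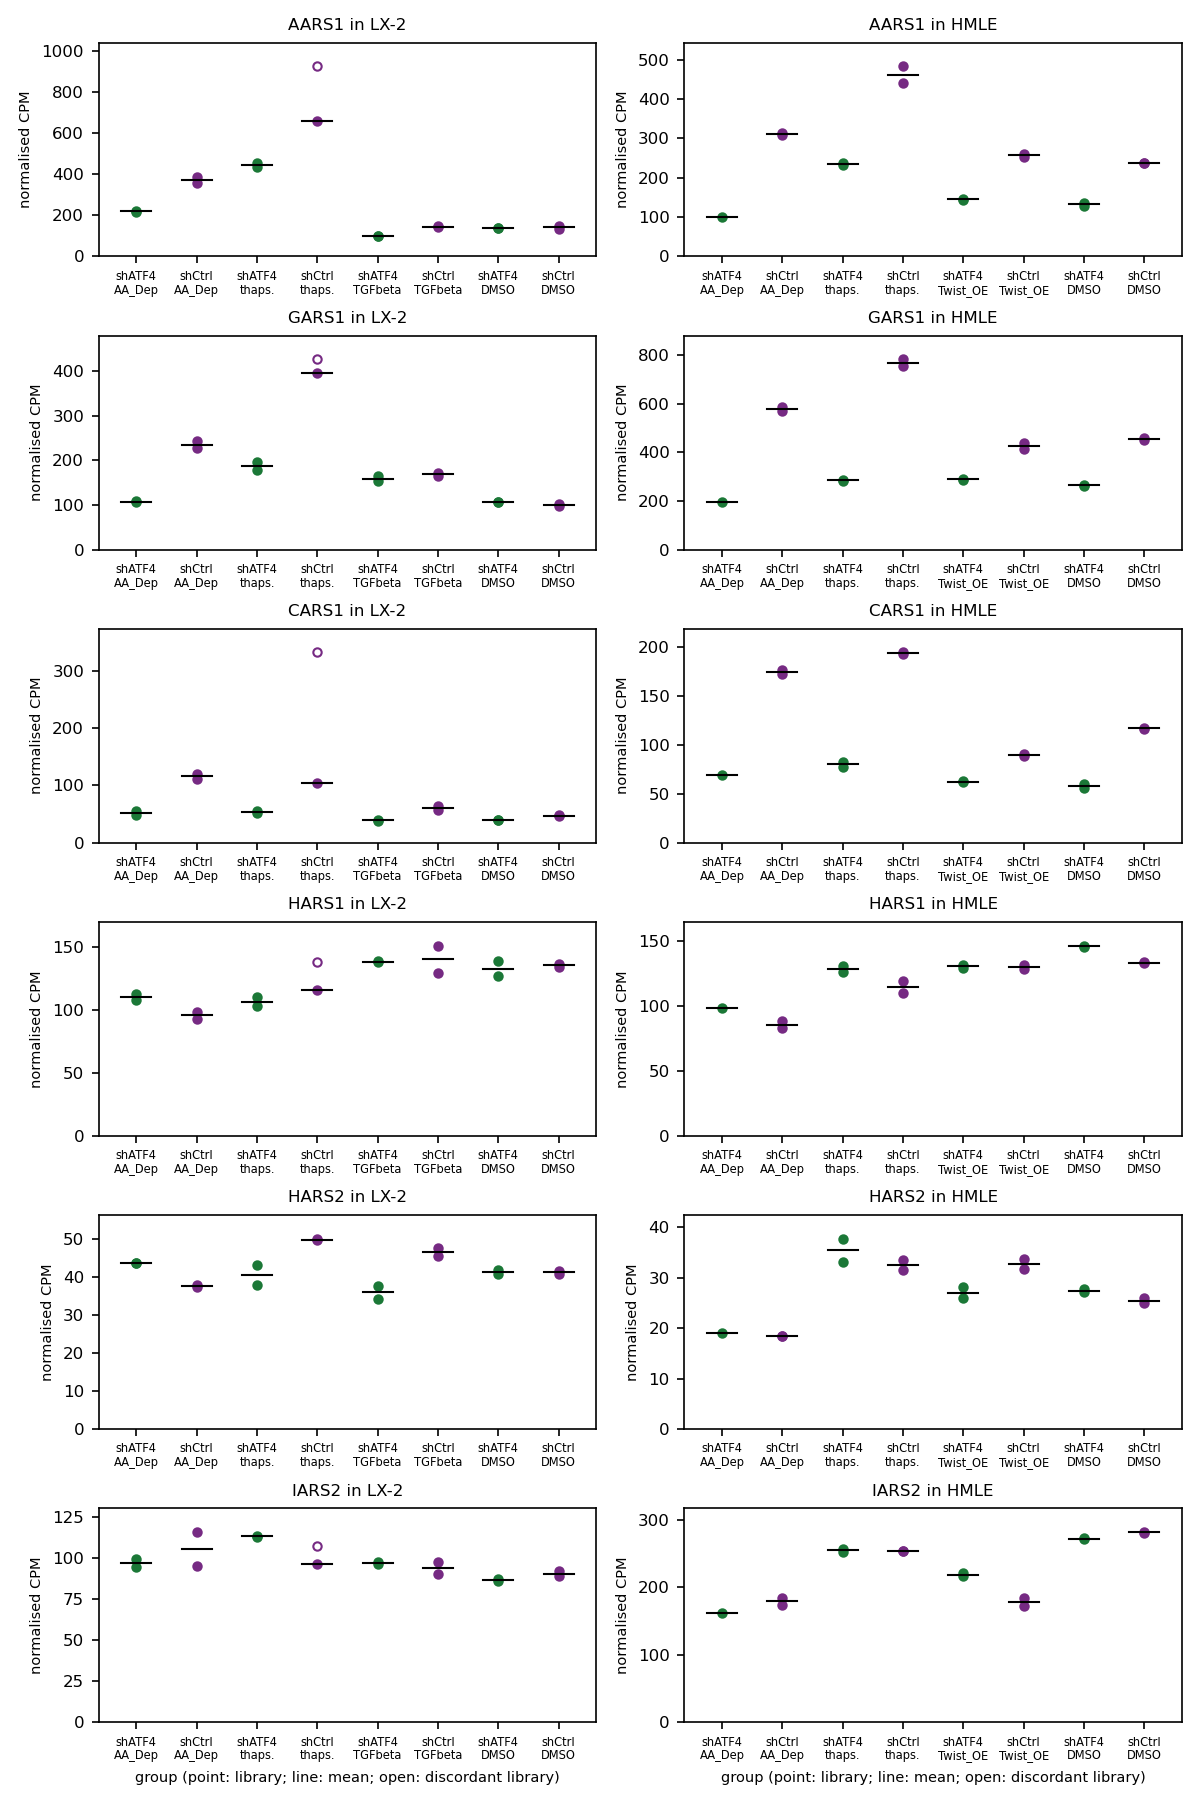
Normalised CPM of AARS1, GARS1, CARS1, HARS1, HARS2 and IARS2 in each library of LX-2 (left) and HMLE (right), with shATF4 beside shCtrl in each condition, points for libraries, a line for the group mean and an open point for the discordant LX-2 library, which the mean leaves out. In HMLE every shATF4 point of AARS1, GARS1 and CARS1 lies below the shCtrl points of its condition.

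The stress conditions themselves, measured in shCtrl cells, moved members of both sets. In LX-2 AA_Dep 11 cytosolic genes rose and 5 fell relative to DMSO, while 1 mitochondrial gene rose and 6 fell, where 22.8% of all tested genes were higher and 22.7% lower. Medians were 0.34 (cytosolic), -0.27 (mitochondrial) and 0.02 (all tested genes). AARS1 had 385 and 358 CPM in AA_Dep, against 135 and 148 CPM in DMSO (log2 change 1.39 ± 0.07, adjusted p = 5.75e-10), and CARS1 had 121 and 111 CPM in AA_Dep, against 46.5 and 48.0 CPM in DMSO (log2 change 1.30 ± 0.10, adjusted p = 2.58e-08). GARS1 rose by 1.24 and YARS1 by 0.94 on the log2 scale. All 11 risers were known targets. Those that fell were VARS1 (103 and 84.6 CPM in AA_Dep, against 149.9 and 163 CPM in DMSO; -0.74), HARS1 (-0.50), FARSB (-0.41), FARSA (-0.36) and KARS1 (-0.26). LARS2 had 36.3 and 39.3 CPM in AA_Dep, against 68.2 and 72.7 CPM in DMSO (log2 change -0.90 ± 0.09, adjusted p = 1.26e-06), and AARS2 had 25.4 and 20.1 CPM in AA_Dep, against 40.3 and 42.8 CPM in DMSO (log2 change -0.87 ± 0.12, adjusted p = 1.86e-05). CARS2, for cysteine, was the mitochondrial gene that rose, with 94.1 and 83.9 CPM in AA_Dep, against 73.2 and 76.3 CPM in DMSO (0.25). With all 16 libraries 2 cytosolic and 1 mitochondrial genes were called, with only these 2 groups in the fit 3 mitochondrial genes, and without shCtrl DMSO replicate 2 there were 4. Responses within a line share their DMSO libraries.

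In HMLE AA_Dep, of the mitochondrial set 14 of 16 fell and 1 rose, and of the cytosolic set 9 rose and 7 fell, where 29.1% of all tested genes were higher and 32.6% lower. The medians were -0.64 (mitochondrial), 0.10 (cytosolic) and 0.00 (all tested genes). Of the 13 known targets 9 rose and 2 fell, whereas 5 of the other 6 cytosolic genes fell and none rose. FARSA had 79.6 and 75.7 CPM in AA_Dep, against 198 and 202 CPM in DMSO (log2 change -1.37 ± 0.05, adjusted p = 1.15e-13), RARS1 75.0 and 69.3 CPM in AA_Dep, against 159 and 158 CPM in DMSO (-1.13) and FARSB 73.3 and 78.8 CPM in AA_Dep, against 156 and 154 CPM in DMSO (-1.03). VARS1 had 155 and 163 CPM in AA_Dep, against 294 and 295 CPM in DMSO (-0.89), HARS1 fell by 0.64 and KARS1 by 0.57 on the log2 scale, and LARS1 by 0.36. Both subunit genes of the phenylalanine enzyme thus stood at under the DMSO levels in both libraries, while WARS1 (0.71), CARS1 (0.58) and TARS1, for threonine (0.47), rose. EARS2 had 27.2 and 31.4 CPM in AA_Dep, against 73.8 and 72.5 CPM in DMSO (log2 change -1.32 ± 0.07, adjusted p = 1.56e-11), and YARS2, for tyrosine, had 33.6 and 34.7 CPM in AA_Dep, against 76.7 and 73.4 CPM in DMSO (log2 change -1.14 ± 0.07, adjusted p = 1.05e-10). As in LX-2, CARS2 was the mitochondrial gene that rose (85.3 and 90.6 CPM in AA_Dep, against 75.1 and 72.6 CPM in DMSO; 0.25), and WARS2, for tryptophan, was not called (-0.06).

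**Figure D3:**
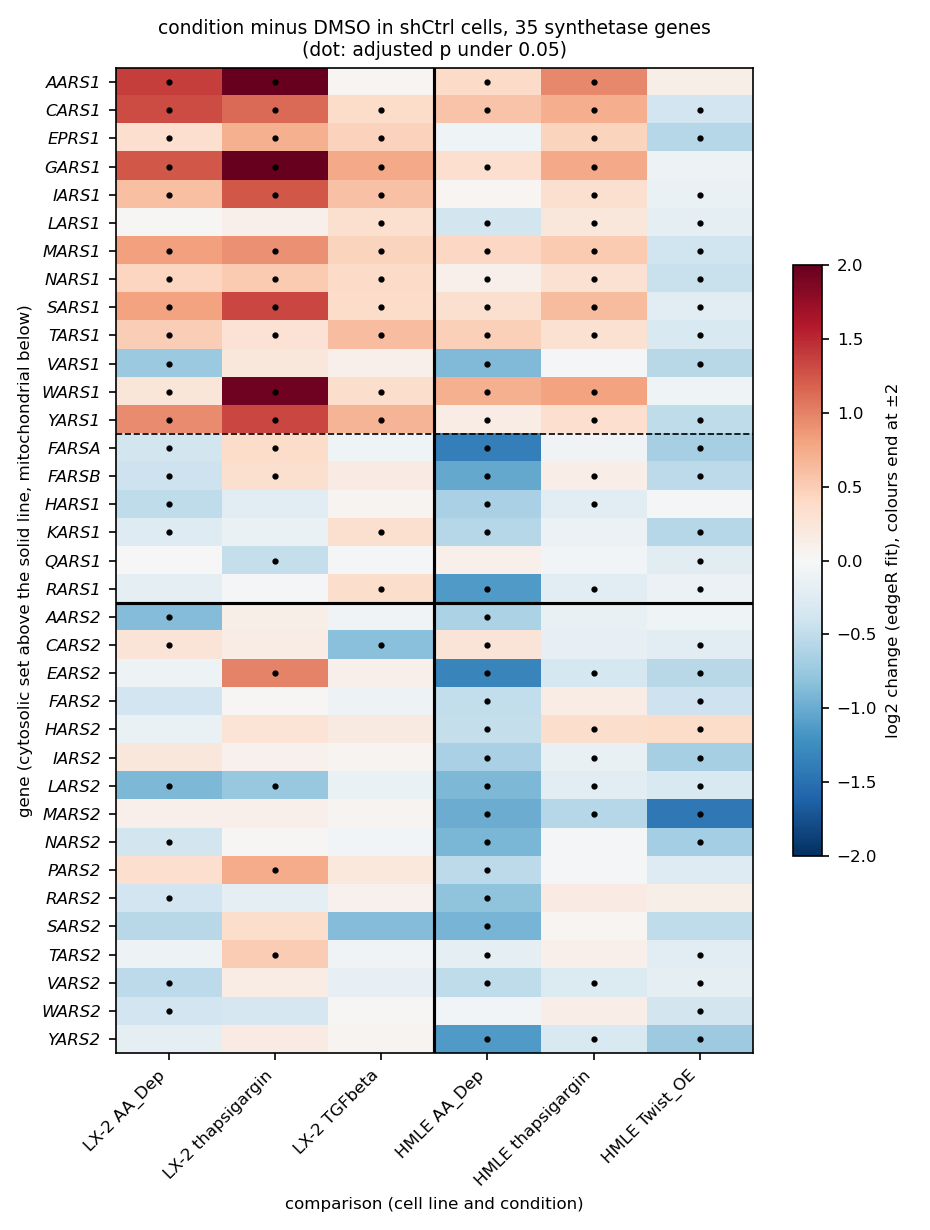
Log2 change of each synthetase gene (rows) relative to DMSO in shCtrl cells under AA_Dep, thapsigargin and TGFbeta (LX-2) or Twist_OE (HMLE), with red for higher, blue for lower and a dot for an adjusted p under 0.05. In HMLE AA_Dep the mitochondrial block below the solid line is lower in 15 of 16 genes, 14 of them called, and the known targets above the dashed line are mostly higher.

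Thapsigargin raised 13 cytosolic genes and lowered 1 in LX-2 shCtrl cells, and raised 3 mitochondrial genes and lowered 1, where 20.2% of all tested genes were higher and 20.4% lower. Cytosolic and mitochondrial medians were 0.52 and 0.13. AARS1 had 658 CPM in thapsigargin, against 135 and 148 CPM in DMSO (log2 change 2.21 ± 0.08, adjusted p = 2.2e-11), with 927 CPM in the discordant library. GARS1 had 397 CPM in thapsigargin, against 96.7 and 103 CPM in DMSO (log2 change 1.99 ± 0.09, adjusted p = 1.56e-10), and WARS1 389 CPM in thapsigargin, against 95.7 and 106 CPM in DMSO (1.95). These changes in AARS1, GARS1 and WARS1 were the largest rises of any member in the shCtrl responses. YARS1 had 321 CPM in thapsigargin, against 124 and 129.8 CPM in DMSO (1.34). QARS1, for glutamine, was the one that fell, with 162 CPM in thapsigargin, against 219.8 and 232 CPM in DMSO (log2 change -0.48 ± 0.10). In the discordant library QARS1 stood at 303 CPM, above both DMSO libraries, and its log2 change was 0.06 with all 16 libraries. EARS2 had 53.3 CPM in thapsigargin, against 26.0 and 27.4 CPM in DMSO (log2 change 1.0 ± 0.12, adjusted p = 8.03e-06), and LARS2 had 41.7 CPM in thapsigargin, against 68.2 and 72.7 CPM in DMSO (-0.76). TARS2 rose by 0.50 and PARS2 by 0.74. With all 16 libraries 9 cytosolic genes were called higher and none lower, and 5 mitochondrial genes higher and 1 lower.

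In HMLE shCtrl cells thapsigargin raised 13 cytosolic genes and lowered 2, and raised 1 mitochondrial gene and lowered 6, where 18.6% of all tested genes were higher and 18.2% lower. The medians were 0.31 (cytosolic) and -0.10 (mitochondrial). AARS1 had 483 and 441 CPM in thapsigargin, against 238 and 236 CPM in DMSO (log2 change 0.96 ± 0.05, adjusted p = 1.37e-11), WARS1 478 and 443 CPM in thapsigargin, against 263 and 263 CPM in DMSO (0.81) and GARS1 757 and 783 CPM in thapsigargin, against 458 and 453 CPM in DMSO (0.76). CARS1 rose by 0.73, and 12 of the 13 known targets rose, VARS1 being the exception (-0.03). HARS1 (110.2 and 119 CPM in thapsigargin, against 134 and 133 CPM in DMSO; -0.22) and RARS1 (134 and 140.1 CPM in thapsigargin, against 159 and 158 CPM in DMSO; -0.21) fell. MARS2 had 33.8 and 36.0 CPM in thapsigargin, against 54.8 and 49.1 CPM in DMSO (log2 change -0.57 ± 0.07, adjusted p = 2.58e-06), whereas HARS2 had 33.6 and 31.6 CPM in thapsigargin, against 25.0 and 26.0 CPM in DMSO (log2 change 0.36 ± 0.08, adjusted p = 0.00143). Without shCtrl DMSO replicate 2 edgeR called 4 mitochondrial genes here.

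TGFbeta raised 13 cytosolic genes and lowered none in LX-2 shCtrl cells, where 11.1% of all tested genes were higher and 11% lower, and lowered 1 mitochondrial gene. The medians were 0.36 (cytosolic) and -0.01 (mitochondrial). GARS1 had 165 and 172 CPM in TGFbeta, against 96.7 and 103 CPM in DMSO (log2 change 0.75 ± 0.08, adjusted p = 3.24e-06), YARS1 194 and 211 CPM in TGFbeta, against 124 and 129.8 CPM in DMSO (0.68) and TARS1 637 and 661 CPM in TGFbeta, against 415 and 432 CPM in DMSO (0.62). IARS1 had 415 and 425 CPM in TGFbeta, against 291 and 269.8 CPM in DMSO (0.58). AARS1, the member most raised by thapsigargin with 15 libraries, had 146 and 145 CPM in TGFbeta, against 135 and 148 CPM in DMSO and was not called (0.04). KARS1 (0.32) and RARS1 (0.35), outside the known targets, rose. CARS2 fell, with 40.6 and 43.5 CPM in TGFbeta, against 73.2 and 76.3 CPM in DMSO (log2 change -0.83 ± 0.09, adjusted p = 3.6e-06). ATF4 itself rose by 0.36 in this comparison. With all 16 libraries 1 cytosolic gene was called.

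Twist_OE lowered genes of both sets in HMLE shCtrl cells: 15 cytosolic genes fell and none rose, and 11 mitochondrial genes fell and 1 rose, where 28.3% of all tested genes were higher and 28.9% lower. The medians were -0.31 and -0.34. FARSA had 128 and 126 CPM in Twist_OE, against 198 and 202 CPM in DMSO (log2 change -0.66 ± 0.05, adjusted p = 1.32e-09), and EPRS1, the fused glutamate and proline enzyme, had 279 and 263 CPM in Twist_OE, against 409 and 397 CPM in DMSO (-0.57). KARS1 had 225 and 215 CPM in Twist_OE, against 321 and 333 CPM in DMSO (-0.57), and VARS1 201 and 201 CPM in Twist_OE, against 294 and 295 CPM in DMSO (-0.55). AARS1, GARS1, WARS1 and HARS1 were not called, at 0.11, -0.09, -0.08 and -0.04. MARS2 had 19.5 and 19.1 CPM in Twist_OE, against 54.8 and 49.1 CPM in DMSO (log2 change -1.43 ± 0.08, adjusted p = 5.11e-12), the largest fall of any member in any shCtrl response. YARS2 had 45.2 and 45.5 CPM in Twist_OE, against 76.7 and 73.4 CPM in DMSO (-0.73), and HARS2 rose, with 31.9 and 33.7 CPM in Twist_OE, against 25.0 and 26.0 CPM in DMSO (0.36). ATF4 was lower too in this condition (-0.57).

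Summed over its members, the cytosolic set made up 2794 and 2752 CPM of LX-2 shATF4 libraries in AA_Dep, against 3935 and 4142 CPM with shCtrl. In thapsigargin the sums were 3986 and 3990.2 CPM with shATF4, against 5323 CPM in the shCtrl library used and 6746 CPM in the discordant one. The HMLE sums were 3164 CPM in AA_Dep with shATF4, against 5540.3 and 5563 CPM with shCtrl. In every one of these cases the shATF4 libraries were lower and the groups did not overlap. HMLE thapsigargin gave 4446 and 4398 CPM with shATF4, against 7036 and 6936 CPM with shCtrl, and HMLE DMSO 4150.1 and 4098 CPM, against 5351 and 5333 CPM. LX-2 DMSO gave 3058 and 3056 CPM with shATF4, against 2917 and 3004 CPM with shCtrl, the reverse order by a small margin. The mitochondrial sums were 561 and 555 CPM against 531 and 528 CPM in LX-2 AA_Dep, and 588 CPM against 593 and 602 CPM in HMLE AA_Dep, with the shATF4 value before the shCtrl value. In LX-2 thapsigargin they were 649 and 638 CPM with shATF4, against 650.0 CPM in the shCtrl library used and 1019 CPM in the discordant one. In LX-2 TGFbeta the cytosolic sums overlapped, at 3833 and 3879 CPM with shATF4, against 3799 and 3904 CPM with shCtrl, and the mitochondrial sums were 558 and 562 CPM with shATF4, against 565 and 570.4 CPM with shCtrl. HMLE Twist_OE had 829 and 811 CPM of mitochondrial members in shATF4 cells, against 665 and 671 CPM in shCtrl cells. Such sums weigh each member by its reads and were not tested.

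**Figure D4:**
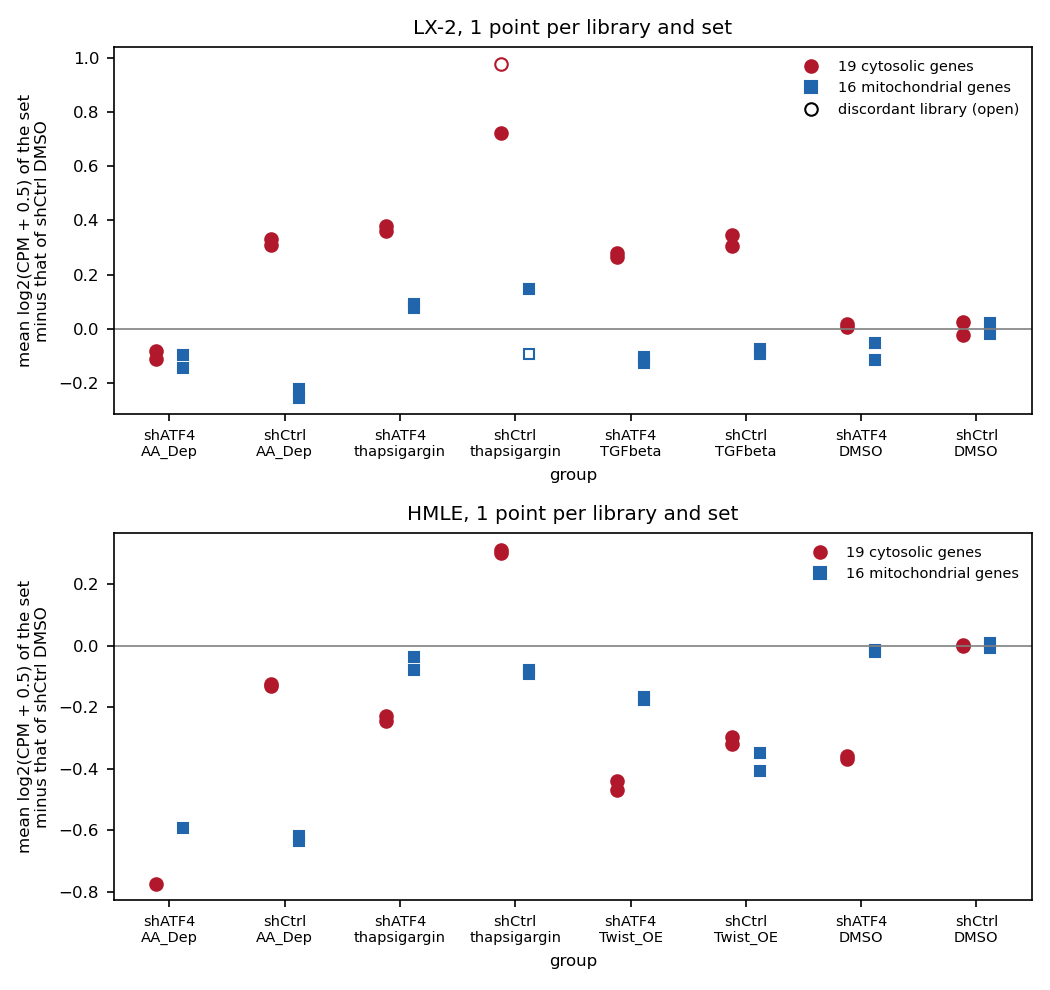
Mean log2(CPM + 0.5) of the 19 cytosolic genes (circles) and the 16 mitochondrial genes (squares) in each library, relative to the shCtrl DMSO mean of its line, with shATF4 left of shCtrl in each condition and the discordant LX-2 library open. In HMLE AA_Dep the cytosolic mean is -0.77 with shATF4, against -0.13 and -0.12 with shCtrl, while the mitochondrial mean is -0.59 with shATF4, against -0.64 and -0.62 with shCtrl.

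Whether the hairpin changed the response itself was tested as an interaction, the response in shATF4 cells minus that in shCtrl cells on the log2 scale. In LX-2 AA_Dep 12 cytosolic genes had a lower response with shATF4 and 1 a higher one, and 2 mitochondrial genes a higher one, where 3.91% of all tested genes were higher and 6.65% lower. GARS1 had a log2 change of 0.01 with AA_Dep in shATF4 cells and of 1.24 in shCtrl cells (difference -1.22 ± 0.11, adjusted p = 5.23e-06). YARS1 had an interaction of -1.02, IARS1 of -0.95 and TARS1 of -0.90, and VARS1 of 0.55. Of the 11 cytosolic genes that rose in shCtrl cells, 3 also rose in shATF4 cells (AARS1, CARS1 and SARS1) and 5 fell there (EPRS1, IARS1, NARS1, TARS1 and WARS1); in all, 3 cytosolic genes rose and 8 fell in shATF4 cells with AA_Dep, where 20.3% of all tested genes were higher and 22.1% lower. The mitochondrial genes of shATF4 cells rose in 2 cases and fell in 4. Fitting all 16 libraries, edgeR called 1 cytosolic and no mitochondrial gene in shATF4 cells with AA_Dep (3 and 1 at an unadjusted p under 0.05), and without shATF4 AA_Dep replicate 1 there were 7 cytosolic calls. The 2 mitochondrial interactions were both lost with all 16 libraries, with no count filter, when fitting the compared groups alone and with a replicate block; 5 passed without shCtrl AA_Dep replicate 1, 3 without shCtrl AA_Dep replicate 2, 1 without shCtrl DMSO replicate 1, and none without any 1 of the other 5 libraries compared. With all 16 libraries none of the cytosolic interactions passed in edgeR (3 had an unadjusted p under 0.05, and 12 of all genes passed), and their median was -0.69.

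HMLE AA_Dep gave 11 cytosolic genes a lower response with shATF4 and none a higher one, and no mitochondrial interaction passed, where 2.99% of all tested genes were higher and 2.1% lower. The cytosolic median was -0.34 and the mitochondrial one 0.00. AARS1 fell by 0.39 on the log2 scale with AA_Dep in shATF4 cells, against a rise of 0.39 in shCtrl cells (difference -0.78 ± 0.08, adjusted p = 5.29e-06). GARS1 had -0.43 in shATF4 cells, against 0.34 in shCtrl cells (difference -0.77 ± 0.07, adjusted p = 9.37e-07). WARS1 rose by 0.70 in shATF4 cells and by 0.71 in shCtrl cells, an interaction of -0.01 that did not pass. Outside the known targets no cytosolic interaction passed: FARSA had a log2 change of -1.19 with shATF4 and -1.37 with shCtrl (difference 0.17 ± 0.08, adjusted p = 0.294), and RARS1 of -1.42 and -1.13 (-0.28). In shATF4 cells with AA_Dep 13 cytosolic genes fell and 2 rose, and 12 mitochondrial genes fell, where 25.7% of all tested genes were higher and 28.4% lower. DESeq2 gave no mitochondrial interaction either, with 1 at an unadjusted p under 0.05 in edgeR, and of the 14 mitochondrial genes that fell in shCtrl cells 12 fell in shATF4 cells.

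**Figure D5:**
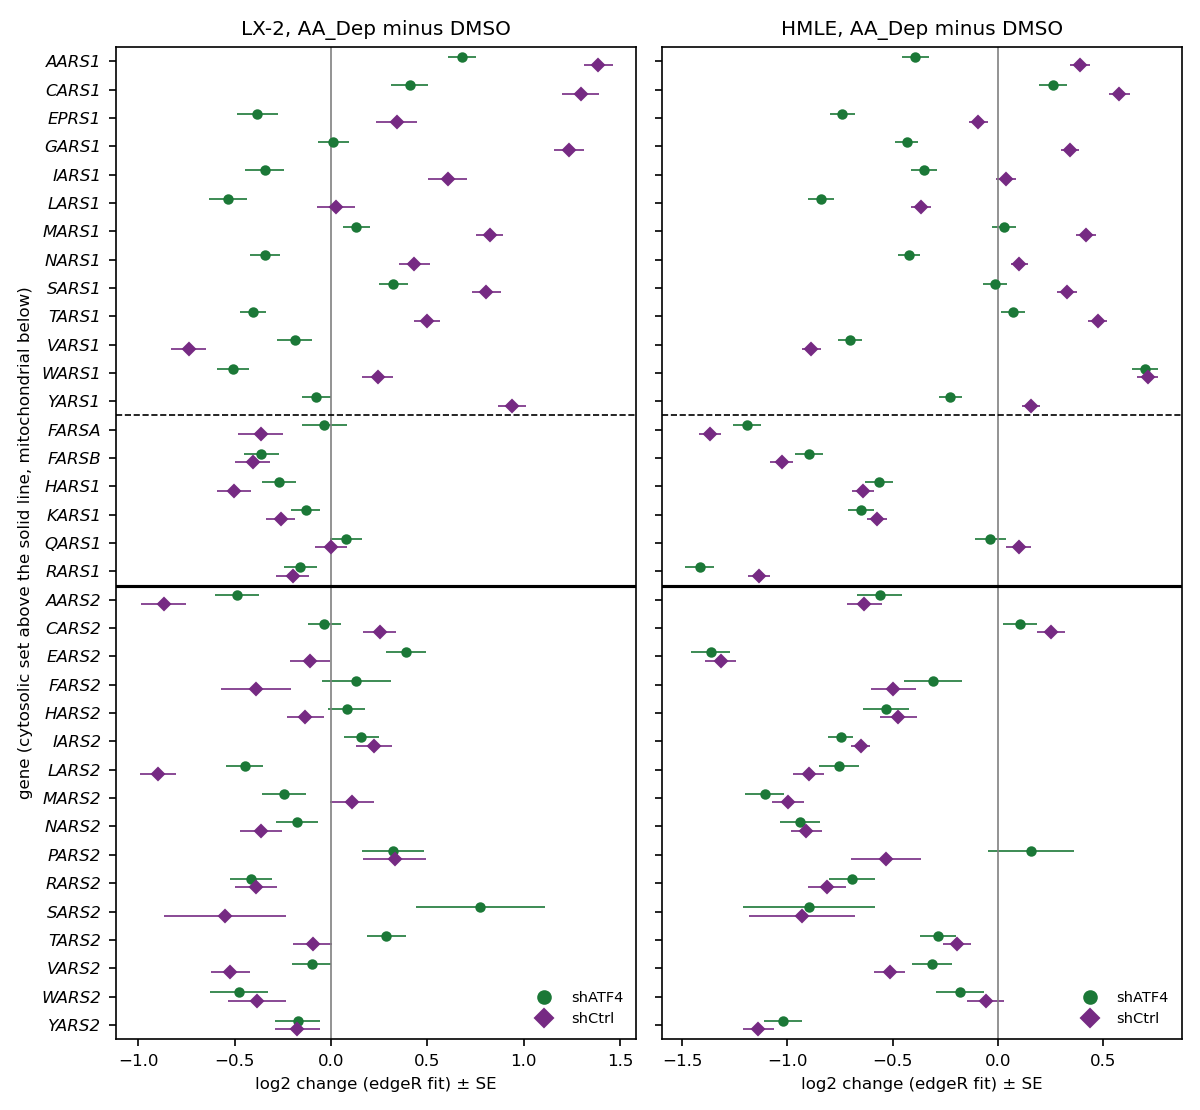
Log2 change with AA_Dep relative to DMSO for each synthetase gene, in shATF4 cells (circles) and shCtrl cells (diamonds) with SE bars, for LX-2 (left) and HMLE (right). Known stress response targets (above the dashed line) have their circles left of their diamonds in 12 of 13 genes per line, VARS1 being the exception in both. In HMLE most mitochondrial pairs below the solid line lie close together. PARS2 is apart, with group means of 8.11 CPM in DMSO and 5.60 CPM in AA_Dep with shCtrl. With shATF4 it has 6.63 CPM in DMSO and 7.39 CPM in the single AA_Dep library. Its difference between hairpins was not called.

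In thapsigargin 9 cytosolic genes had a lower response with shATF4 in LX-2, where 3.67% of all tested genes were higher and 2.46% lower. No mitochondrial interaction passed in edgeR or DESeq2 in either line, and 1 in each line had an unadjusted p under 0.05 in edgeR. In HMLE 1 passed in edgeR with no count filter, when fitting the compared groups alone, with a replicate block, or without shCtrl thapsigargin replicate 2. GARS1 rose by 0.82 with thapsigargin in shATF4 cells and by 1.99 in shCtrl cells (difference -1.17 ± 0.12, adjusted p = 2.48e-05). AARS1 rose by 1.69 in shATF4 cells and by 2.21 in shCtrl cells (difference -0.52 ± 0.11, adjusted p = 0.0115). In LX-2 shATF4 cells 11 cytosolic genes still rose and 3 fell with thapsigargin, 10 of the risers being among the 13 of shCtrl cells, where 17.8% of all tested genes were higher and 19.2% lower; mitochondrial genes rose in 3 cases and fell in 1. The cytosolic calls in these cells with all 16 libraries were 3, all higher (AARS1, GARS1 and WARS1), and the mitochondrial calls 1. HMLE also had 9 lower cytosolic interactions, where 2.16% of all tested genes were higher and 2.4% lower. GARS1 had a log2 change of 0.10 in HMLE shATF4 cells and of 0.76 in shCtrl cells (difference -0.66 ± 0.06, adjusted p = 2.04e-06), whereas AARS1 rose by 0.83 and 0.96, an interaction of -0.13 that did not pass. With thapsigargin 7 cytosolic genes rose and 2 fell, and 1 mitochondrial gene rose and 4 fell, in HMLE shATF4 cells, where 16.8% of all tested genes were higher and 15.7% lower. In the fit of all 16 LX-2 libraries 1 LX-2 cytosolic interaction passed. The HMLE count was 5 without shATF4 thapsigargin replicate 2 or without either shCtrl DMSO library.

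In LX-2 TGFbeta 1 interaction passed, that of AARS1, where 0.563% of all tested genes were higher and 0.424% lower. AARS1 had a log2 change of -0.46 with TGFbeta in shATF4 cells and of 0.04 in shCtrl cells (difference -0.49 ± 0.10, adjusted p = 0.0332); the call was lost without any 1 of 7 of the 8 libraries compared and in the fit with all 16. Of the 13 cytosolic genes that rose with TGFbeta in shCtrl cells, 11 rose in shATF4 cells, where 13 cytosolic genes rose and 1 fell in all, 2 mitochondrial genes rose and 4 fell, and 13.5% of all tested genes were higher and 14.1% lower. The counts of 14 cytosolic and 6 mitochondrial genes ranged from 8 to 10 and from 1 to 3 with 1 compared library left out, and with all 16 libraries edgeR called none of either set (3 and 1 at an unadjusted p under 0.05). HMLE Twist_OE went the other way from the stress conditions: 12 cytosolic genes had a higher response with shATF4, and none a lower one, with 6 mitochondrial genes higher and 1 lower, where 16.3% of all tested genes were higher and 13.4% lower. DESeq2 called 4 of these mitochondrial interactions, and edgeR called 4 without shATF4 Twist_OE replicate 1, shCtrl Twist_OE replicate 2 or shCtrl DMSO replicate 1, and 9 without shATF4 Twist_OE replicate 2. CARS1 had a log2 change of 0.11 with Twist_OE in shATF4 cells and of -0.38 in shCtrl cells (difference 0.49 ± 0.07, adjusted p = 4.12e-05), VARS2 of 0.92 and -0.20 (difference 1.12 ± 0.10, adjusted p = 5.48e-08) and MARS2 of -0.46 and -1.43 (0.97). ATF4 had an interaction of 0.88 here. In HMLE shATF4 cells 2 cytosolic genes rose and 9 fell with Twist_OE, and 1 mitochondrial gene rose and 8 fell, where 18.2% of all tested genes were higher and 17.2% lower.

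HARS1 and HARS2, the cytosolic and mitochondrial histidine enzymes, lie head to head, with annotated starts 85 bases apart in opposite directions (GRCh38.p14), and neither window holds TGATGNAA. HARS1 is outside the known targets. The labels do not say whether counting used the strand. In LX-2 AA_Dep HARS1 had 108 and 112 CPM in shATF4 cells, against 98.7 and 92.5 CPM in shCtrl cells and HARS2 43.7 and 43.7 CPM in shATF4 cells, against 37.8 and 37.3 CPM in shCtrl cells, neither called between hairpins (0.21 and 0.22). With AA_Dep both members of the pair fell in HMLE shCtrl cells, HARS1 by 0.64 and HARS2 by 0.47 on the log2 scale. With thapsigargin they parted: HARS1 fell and HARS2 rose in HMLE shCtrl cells, and in shATF4 cells likewise (-0.19 and 0.37). GARS1 and KARS1, each of which supplies both compartments, did not move together between hairpins in AA_Dep. KARS1 in HMLE AA_Dep had 214 CPM in shATF4 cells, against 223 and 216 CPM in shCtrl cells (-0.04). In LX-2 AA_Dep it had 97.9 and 91.9 CPM in shATF4 cells, against 99.4 and 95.4 CPM in shCtrl cells (-0.04). GARS1 fell by 1.55 and 1.13 there. Both genes rose with TGFbeta in LX-2 shCtrl cells.

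The lines also differed before any treatment. In shCtrl DMSO, 17 cytosolic members were lower in LX-2 than in HMLE and 1 higher, and 11 mitochondrial members lower and 2 higher, where 35.9% of all tested genes were higher and 34.5% lower. The medians were -1.10 and -0.61, against 0.07 over all tested genes. GARS1 (log2 change -2.37 ± 0.06, adjusted p = 1.63e-21) had 96.7 and 103 CPM in LX-2, against 458 and 453 CPM in HMLE, and QARS1, the one that was higher, had 219.8 and 232 CPM, against 148 and 142 CPM (0.45); these levels are scaled within each line. ATF4 was lower in LX-2 as well (-1.11). In a fit of both lines together, the effect of shATF4 was smaller in LX-2 than in HMLE for 11 cytosolic genes in DMSO, where 3.12% of all tested genes were higher and 3.16% lower, for 6 in thapsigargin, where 3.41% of all tested genes were higher and 2.4% lower, and for 6 in AA_Dep, where 2.85% of all tested genes were higher and 4.32% lower. No cytosolic gene had a larger fall in LX-2 by this test, and of the mitochondrial set 1 difference passed in all, TARS2 in AA_Dep (difference on the log2 scale 0.48 ± 0.13, adjusted p = 0.0237). In DMSO GARS1 had a log2 change of 0.09 in LX-2 and -0.78 in HMLE (difference on the log2 scale 0.84 ± 0.09, adjusted p = 3.15e-07), and YARS1 of 0.08 and -0.83 (0.88). In AA_Dep AARS1 had a log2 change of -0.75 in LX-2 and -1.62 in HMLE (difference on the log2 scale 0.90 ± 0.10, adjusted p = 1.14e-06), while CARS1 did not differ past the threshold (0.19). ATF4 RNA was also lowered less in LX-2, by 1.17 in AA_Dep, 1.14 in thapsigargin and 0.91 in DMSO on the log2 scale; its part in the difference between lines was not tested. Using all 16 LX-2 libraries, 2, 0 and 1 cytosolic differences passed in DMSO, thapsigargin and AA_Dep, that of ATF4 passed in none of them (0.92, 0.57 and 1.14), and of the mitochondrial set 1 passed, in thapsigargin. The TARS2 call in AA_Dep was lost there, with no count filter and without HMLE shCtrl AA_Dep replicate 2. In thapsigargin 10 then had an unadjusted p under 0.05, and their median turned to -0.19, against 0.28 without the discordant library. The thapsigargin count was 2 without HMLE shATF4 thapsigargin replicate 2 and 3 without HMLE shCtrl thapsigargin replicate 1.

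Among 19 other genes of tRNA handling and elongation, of which 18 were tested, the number called with shATF4 varied by condition. In LX-2 AA_Dep 1 was higher and 3 lower, where 3.87% of all tested genes were higher and 6.04% lower, and in LX-2 TGFbeta 2 were higher and 1 lower, where 10.9% of all tested genes were higher and 10.7% lower. In LX-2 thapsigargin and DMSO edgeR called none, with 3 and 5 at an unadjusted p under 0.05. Fitted on all 16 LX-2 libraries, edgeR called none of the list between hairpins in any LX-2 condition, with 5 in thapsigargin and 2 in AA_Dep at an unadjusted p under 0.05. In HMLE AA_Dep 1 was higher and 3 lower, where 9.77% of all tested genes were higher and 7.09% lower, and in HMLE thapsigargin 2 were higher and 3 lower, where 12.3% of all tested genes were higher and 11.9% lower. In HMLE Twist_OE 9 were higher and 2 lower, where 23.3% of all tested genes were higher and 23.9% lower, and in HMLE DMSO 2 were higher and 2 lower, where 6.08% of all tested genes were higher and 6.72% lower. XPOT, the exporter of tRNA from the nucleus, had 238 and 239 CPM in LX-2 shATF4 cells with AA_Dep, against 349 and 448 CPM in shCtrl cells (-0.74), and 177 CPM in the HMLE shATF4 library, against 429 and 419 CPM (log2 change -1.26 ± 0.06, adjusted p = 1.17e-11). In HMLE thapsigargin it fell by 0.79 on the log2 scale, and it was the most changed gene of the list in each of these. AIMP2, a scaffold of the multisynthetase complex, had -0.32 and AIMP1, another, 0.23 in HMLE AA_Dep. EEF2, the elongation factor that moves the ribosome, had -0.41 in LX-2 AA_Dep, and MTFMT, which formylates mitochondrial initiator tRNA, 0.57. In shCtrl cells AA_Dep lowered 8 of the 18 and raised 5 in LX-2, where 22.8% of all tested genes were higher and 22.7% lower, and lowered 11 and raised 2 in HMLE, where 29.1% of all tested genes were higher and 32.6% lower; with all 16 LX-2 libraries 3 were lower and 2 higher in LX-2. Among them were GFM1, a mitochondrial elongation factor, at -1.35 in LX-2, and AIMP2 at -1.14 in HMLE. XPOT rose in both (1.31 and 0.38). Of 10 reference genes of the ATF4 programme all 10 were lower with shATF4 in AA_Dep and in thapsigargin in either line, with medians of -1.83 and -1.40 in LX-2 and -2.83 and -2.15 in HMLE; with all 16 LX-2 libraries 5 were called lower in LX-2 AA_Dep and 3 in LX-2 thapsigargin. Among them PSAT1, of serine synthesis, had -1.91 in LX-2 AA_Dep and -2.91 in HMLE AA_Dep. In LX-2 TGFbeta 6 of the 10 were lower and 1 higher, and in LX-2 DMSO 2 lower and 1 higher. HMLE Twist_OE had 7 lower and 3 higher, and HMLE DMSO 8 lower and 0 higher. Of all tested genes 2.09% were lower in LX-2 thapsigargin, and 6.28% were higher and 5.3% lower in LX-2 DMSO.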

How the data were processed

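RNA was extracted with Qiagen RNeasy columns and turned into libraries with the SMARTER mRNA-Seq kit (per the labels' protocols). The authors deposited raw counts per Ensembl gene for each sample. The submitters' processing notes name cutadapt, Bowtie2, STAR, HOMER, featureCounts and DESeq and the builds hg19 and hg38, without versions or roles; whether counting used the strand is not given in the sources used here. Of 41 samples, the 9 ChIP samples were not analysed here. The 32 RNA samples were grouped by line, hairpin and treatment as labelled. The 2 files of HMLE shATF4 AA_Dep were identical and entered as 1 library, leaving 31 libraries, and files held 110 to 452 blank lines, which were left out.

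Counts were tested in edgeR 4.0.16 (R 4.3.3, limma 3.58.1) with filterByExpr, TMM and the quasi-likelihood F test on a group-means design, fitted per line (18649 genes in 15 LX-2 libraries, 17940 in 15 HMLE libraries) and jointly (20308 genes). Contrasts were shATF4 minus shCtrl, condition minus DMSO, and their differences; Benjamini-Hochberg adjustment was over all genes tested, with a threshold of 0.05, and SE was taken from the log2 change and its F statistic. LX-2 shCtrl thapsigargin replicate 2 was left out of the main LX-2 fit because earlier results of these files were known, and the fit with all 16 is an alternative. DESeq2 1.42.0, its size factors, no count filter, a replicate block, fits of the compared groups alone and leaving out each library were the others. The fits were tested on simulated data.

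The members, gene lists, groupings and tests were chosen with earlier results of these data known. Values are given for up to 4 cytosolic and 2 mitochondrial called members per comparison with the largest change, for those called against the direction of their set, for HARS1, HARS2, GARS1 and KARS1, for ATF4, and for up to 2 other pathway genes per direction. Members named beyond these were chosen after their values were seen. Set means used log2(CPM + 0.5). Ensembl identifiers were matched to symbols through the reference gene table (41937 of 58735). Promoter windows are RefSeq's, of GRCh38.p14, and counts are not tied to them.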

Additional observations from a re-analysis of the deposited data

Results flagged for a closer look

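The effect of shATF4 differed between the lines, by a test of the difference itself in a fit of both lines (edgeR, adjusted over all genes), for ATF4 and for the members below. Each value is the log2 change with shATF4 in LX-2 minus that in HMLE, so that a positive value means a smaller fall, or a higher value, in LX-2. In DMSO the differences were 0.91 for ATF4, 0.77 for AARS1, 0.70 for CARS1, 0.50 for EPRS1, 0.84 for GARS1, 0.55 for IARS1, 0.71 for MARS1, 0.48 for NARS1, 0.71 for SARS1, 0.44 for TARS1, 0.92 for WARS1 and 0.88 for YARS1. In thapsigargin the differences were 1.14 for ATF4, 0.41 for AARS1, 0.53 for EPRS1, 0.36 for GARS1, 0.58 for MARS1, 0.53 for SARS1 and 0.34 for TARS1. In AA_Dep the differences were 1.17 for ATF4, 0.90 for AARS1, 0.48 for EPRS1, 0.45 for GARS1, 0.47 for MARS1, 0.63 for SARS1, 0.30 for YARS1 and 0.48 for TARS2. SARS1, AARS1, EPRS1, GARS1 and MARS1 differed past the threshold in all 3 conditions, while CARS1 and WARS1 did so in DMSO and not in AA_Dep. These were not all smaller falls, as no cytosolic gene was called in LX-2 DMSO. There the shATF4 mean was above the shCtrl mean for GARS1 (106.3 against 99.9 CPM) and EPRS1 (147.8 against 133.3 CPM). TARS2 was the mitochondrial gene among them. ATF4 RNA itself was lowered less in LX-2, and the level of each line before treatment differed as well; their part in these differences was not tested. On all 16 LX-2 libraries 2 cytosolic differences passed in DMSO, 0 in thapsigargin (10 at an unadjusted p under 0.05 in edgeR) and 1 in AA_Dep, ATF4 passed in none, and the cytosolic median in thapsigargin turned to -0.19, against 0.28 with 15. Leaving out 1 library of the 2 lines gave 2 to 7 cytosolic differences in thapsigargin. Single libraries within a group of 2 were compared by their replicate correlation and detected genes, and no outlier test was made.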

How the results depend on the processing

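Signs were checked for up to 4 cytosolic and 2 mitochondrial called members of largest change in each hairpin comparison and each shCtrl response. A called member outside them, QARS1 in the LX-2 shCtrl thapsigargin response, went from -0.48 to 0.06 with all 16 libraries. The members checked did not change sign under any alternative run. They lost the call in 22 of 34 cases with all 16 LX-2 libraries, 1 of 74 with DESeq2's Wald test, 2 of 74 with no count filter, 2 of 74 with fits of the compared groups alone, and 19 of 268 cases with 1 library left out. DESeq2's size factors in place of TMM moved no count of either set by over 1.5 times. Counts below are of members called, with the main count after "against". An effect is shATF4 minus shCtrl, a response condition minus DMSO, a hairpin difference that of the responses and a line difference that of the effects. The cause was not tested. The spread between replicates was 9.21% (biological coefficient of variation over all genes) in 15 LX-2 libraries and 29.5% in all 16. With all 16 LX-2 libraries, cytosolic counts were 1 against 13 in LX-2 shCtrl TGFbeta response, 9 against 14 in LX-2 shCtrl thapsigargin response, 2 against 16 in LX-2 shCtrl AA_Dep response, 0 against 8 in LX-2 TGFbeta effect, 1 against 9 in LX-2 thapsigargin effect, 1 against 13 in LX-2 AA_Dep effect, 0 against 14 in LX-2 shATF4 TGFbeta response, 3 against 14 in LX-2 shATF4 thapsigargin response, 1 against 11 in LX-2 shATF4 AA_Dep response, 0 against 1 in LX-2 TGFbeta hairpin difference, 1 against 9 in LX-2 thapsigargin hairpin difference, 0 against 13 in LX-2 AA_Dep hairpin difference, 2 against 11 in the line difference in DMSO, 0 against 6 in the line difference in thapsigargin and 1 against 6 in the line difference in AA_Dep. With all 16 LX-2 libraries, mitochondrial counts were 0 against 1 in LX-2 shCtrl TGFbeta response, 1 against 7 in LX-2 shCtrl AA_Dep response, 0 against 1 in LX-2 DMSO effect, 0 against 6 in LX-2 TGFbeta effect, 0 against 2 in LX-2 AA_Dep effect, 0 against 6 in LX-2 shATF4 TGFbeta response, 1 against 4 in LX-2 shATF4 thapsigargin response, 0 against 6 in LX-2 shATF4 AA_Dep response, 0 against 2 in LX-2 AA_Dep hairpin difference, 1 against 0 in the line difference in thapsigargin and 0 against 1 in the line difference in AA_Dep. With DESeq2's Wald test, cytosolic counts were 2 against 1 in LX-2 TGFbeta hairpin difference. With DESeq2's Wald test, mitochondrial counts were 1 against 2 in HMLE DMSO effect, 4 against 7 in HMLE Twist_OE hairpin difference and 3 against 1 in the line difference in AA_Dep. With no filter on low counts, mitochondrial counts were 1 against 2 in LX-2 AA_Dep effect, 0 against 2 in LX-2 AA_Dep hairpin difference, 1 against 2 in HMLE DMSO effect, 1 against 0 in HMLE thapsigargin hairpin difference and 0 against 1 in the line difference in AA_Dep. With fits of the compared groups alone, cytosolic counts were 5 against 13 in LX-2 AA_Dep effect and 2 against 1 in LX-2 TGFbeta hairpin difference. With fits of the compared groups alone, mitochondrial counts were 2 against 1 in LX-2 shCtrl TGFbeta response, 3 against 7 in LX-2 shCtrl AA_Dep response, 11 against 6 in LX-2 TGFbeta effect, 1 against 0 in LX-2 thapsigargin effect, 0 against 2 in LX-2 AA_Dep effect, 10 against 6 in LX-2 shATF4 TGFbeta response, 0 against 2 in LX-2 AA_Dep hairpin difference, 2 against 0 in HMLE AA_Dep effect and 1 against 0 in HMLE thapsigargin hairpin difference. With 1 library left out, cytosolic counts ranged from 7 to 10 against 11 in LX-2 shATF4 AA_Dep response, from 8 to 10 against 14 in LX-2 shATF4 TGFbeta response, from 0 to 1 against 1 in LX-2 TGFbeta hairpin difference, from 4 to 5 against 8 in LX-2 TGFbeta effect, from 5 to 7 against 9 in HMLE thapsigargin hairpin difference and from 2 to 7 against 6 in the line difference in thapsigargin. With 1 library left out, mitochondrial counts ranged from 0 to 5 against 2 in LX-2 AA_Dep effect, from 0 to 5 against 2 in LX-2 AA_Dep hairpin difference, from 0 to 1 against 1 in LX-2 DMSO effect, from 1 to 3 against 6 in LX-2 shATF4 TGFbeta response, from 1 to 3 against 6 in LX-2 TGFbeta effect, from 4 to 7 against 7 in LX-2 shCtrl AA_Dep response, from 0 to 1 against 2 in HMLE DMSO effect, from 4 to 9 against 7 in HMLE Twist_OE hairpin difference, from 0 to 1 against 0 in HMLE thapsigargin hairpin difference, from 1 to 3 against 4 in HMLE thapsigargin effect, from 0 to 1 against 0 in HMLE AA_Dep effect, from 4 to 7 against 7 in HMLE shCtrl thapsigargin response, from 0 to 2 against 1 in the line difference in AA_Dep and from 0 to 1 against 0 in the line difference in thapsigargin. Leaving out LX-2 shATF4 AA_Dep replicate 1 gave the 7 cytosolic calls, and LX-2 shCtrl thapsigargin and HMLE shATF4 AA_Dep could not be left out, having 1 library each.

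Counts over all genes moved with these settings too. With all 16 LX-2 libraries they were 560 against 4129 in LX-2 shCtrl TGFbeta response, 2318 against 8496 in LX-2 shCtrl AA_Dep response, 43 against 2160 in LX-2 DMSO effect, 229 against 4044 in LX-2 TGFbeta effect, 41 against 969 in LX-2 thapsigargin effect, 16 against 1849 in LX-2 AA_Dep effect, 430 against 5146 in LX-2 shATF4 TGFbeta response, 1397 against 6915 in LX-2 shATF4 thapsigargin response, 1515 against 7906 in LX-2 shATF4 AA_Dep response, 0 against 184 in LX-2 TGFbeta hairpin difference, 48 against 1143 in LX-2 thapsigargin hairpin difference, 12 against 1971 in LX-2 AA_Dep hairpin difference, 76 against 1276 in the line difference in DMSO and 77 against 1456 in the line difference in AA_Dep. With no count filter they were 1719 against 969 in LX-2 thapsigargin effect and 382 against 184 in LX-2 TGFbeta hairpin difference, and with the compared groups alone 5569 against 8496 in LX-2 shCtrl AA_Dep response, 6952 against 4044 in LX-2 TGFbeta effect, 2615 against 969 in LX-2 thapsigargin effect, 84 against 1849 in LX-2 AA_Dep effect, 583 against 184 in LX-2 TGFbeta hairpin difference, 666 against 1971 in LX-2 AA_Dep hairpin difference and 1378 against 914 in HMLE AA_Dep hairpin difference.

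The replicate numbers did not pair the samples: same-numbered libraries correlated in their deviations from the group means by -0.17 to 0.14 in LX-2 (21 pairs of groups) and by -0.02 to 0.10 in HMLE, with 1 pair over 0.1 in each line. With a replicate block, cytosolic counts were 0 against 1 in LX-2 TGFbeta hairpin difference, and mitochondrial counts were 0 against 2 in LX-2 AA_Dep hairpin difference, 1 against 2 in HMLE DMSO effect, 1 against 0 in HMLE AA_Dep effect and 1 against 0 in HMLE thapsigargin hairpin difference, and 1 of 74 named calls was lost. No other count of either set moved by over 1.5 times under the block.

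Depth limits the lower members: PARS2, at 4.67 to 9.11 CPM in LX-2 with TGFbeta, had an SE of 0.17 on the log2 scale. With 2 libraries a group, and 1 in LX-2 shCtrl thapsigargin and HMLE shATF4 AA_Dep in the main fits, the number of libraries limits what can be called.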

Other observations

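Cytosolic synthetases can also be grouped by whether they sit in the multisynthetase complex, which holds EPRS1, IARS1, KARS1, LARS1, MARS1, QARS1 and RARS1 here. In LX-2 AA_Dep 4 of these 7 were lower with shATF4, with a median log2 change of -0.47, and of the 12 cytosolic members outside it 8 were lower and 1 higher, with a median of -0.64, where 6.04% of all tested genes were lower. In LX-2 thapsigargin 1 of the 7 was lower (median -0.15), and 8 of the 12 (median -0.48), where 2.09% of all tested genes were lower. HMLE gave 4 of 7 lower in AA_Dep (median -0.52) and in thapsigargin (median -0.22), and 3 of 7 in DMSO (median -0.04). Outside the complex 8 of 12 were lower in each of these 3 conditions, with medians of -0.88, -0.83 and -0.54, and 2 were higher in AA_Dep and in thapsigargin. Of all tested HMLE genes 7.09% were lower in AA_Dep, 11.9% in thapsigargin and 6.72% in DMSO. KARS1, QARS1 and RARS1 of the complex were called in none of these 5 comparisons. With all 16 LX-2 libraries 1 cytosolic gene, outside the complex, was called in each of the LX-2 comparisons. The difference between members inside and outside the complex was not tested.

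By the structural class of the enzyme, 6 of 9 class I members were lower in HMLE AA_Dep (median -0.78), and 5 of 9 class II members lower and 2 higher (median -0.68); in LX-2 AA_Dep 6 of 9 class I members were lower and 1 higher (median -0.70), and 5 of 9 class II members lower (median -0.50). In thapsigargin 6 class I and 5 class II members were lower in HMLE, and 4 and 5 in LX-2. The shares over all tested genes are those given for the same comparisons, and the classes were not tested against each other. With all 16 LX-2 libraries the 1 cytosolic gene called in each LX-2 comparison was of class II. EPRS1 carries a domain of each class and was counted in neither.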
